A study of Mus musculus with 18 samples.

Results

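The mouse genes named Trim followed by a number encode tripartite-motif proteins, and all rows of the deposited expression table with such a symbol were taken, with or without a letter at the end. These were 58 of 16614 genes. The low-count filter of the test kept 44 of the 58, among 11989 genes tested in all. The rule for the symbols used no measured value, but the family was chosen with earlier results of these data known. RNA had been sequenced from 18 libraries of bone marrow-derived dendritic cells (BMDC), grown from mouse marrow in medium containing the growth factors Flt3L (100 ng/ml) and GM-CSF (20 ng/ml). After 7 to 10 days the cells were enriched for XCR1+ cells by sorting or with magnetic beads. Without treatment there were 4 libraries of WT cells (WT Control) and 4 of KO cells (KO Control). With LPS there were 5 of each genotype, called WT LPS and KO LPS. LPS is bacterial lipopolysaccharide, a ligand of Toll-like receptor 4. The labels name neither the deleted gene nor the way it was deleted, and they give no mouse strain, age, LPS dose or LPS time. The title of the series concerns the balance of the transcription factors STAT5 and STAT3 in dendritic cells. Nothing in the labels says whether replicates came from different cultures or mice. The p-values thus reflect only how far these libraries spread, which may be technical.

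A TRIM protein usually carries a RING finger, which recruits a ubiquitin-loaded E2 enzyme, followed by B-box zinc fingers and a coiled coil through which the proteins pair. The C-terminal domain picks the target, and the family is divided by it: many members end in a PRY-SPRY domain, others in a PHD finger and bromodomain, NHL repeats, a COS box or a membrane anchor. Many members act in innate immunity, where they attach ubiquitin to sensors, adaptors and transcription factors of the interferon and NF-kB pathways or bind viral components directly. A number of TRIM genes are themselves switched on by type I interferon, which dendritic cells make after Toll-like receptor signalling, while others are housekeeping genes of transcription, centrosomes or the cytoskeleton.

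The promoters are shown because members of the family are known targets of interferon, which acts through a short element there. No response to interferon itself was measured. A promoter entry (RefSeq, build GRCm38.p6, 250 bases before to 50 after a gene start) was found for 45 of the 58 members. It was searched on both strands for the core of the interferon-stimulated response element, 2 copies of GAAA with 2 bases between them. A gene was counted if the window of any of its starts held the core. This was so for 9 of 45 TRIM genes with an entry (20%) and for 510 of 13030 genes of the table with an entry (3.91%). Among the 32 tested members with an entry, 8 held it (25%). They were Trim5, Trim12a, Trim12c, Trim30a, Trim30d and Trim34a of a single chromosome 7 cluster, together with Trim21 and Trim26. The ninth member with the core, Trim2, held it at only 1 of its 5 starts and was not tested. The stretches below are written 5′ to 3′ on the gene's strand with the core in capitals, and a core that lies on the opposite strand reads as 2 copies of TTTC.
Trim30d: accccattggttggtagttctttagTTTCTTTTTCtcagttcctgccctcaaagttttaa
Trim30a: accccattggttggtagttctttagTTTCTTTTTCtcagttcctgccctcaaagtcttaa
Trim5: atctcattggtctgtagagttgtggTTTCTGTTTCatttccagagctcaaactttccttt
Trim12c: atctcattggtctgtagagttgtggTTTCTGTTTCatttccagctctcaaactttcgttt
Trim34a: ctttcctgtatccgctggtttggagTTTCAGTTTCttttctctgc
Trim21: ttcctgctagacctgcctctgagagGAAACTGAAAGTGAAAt
Trim26: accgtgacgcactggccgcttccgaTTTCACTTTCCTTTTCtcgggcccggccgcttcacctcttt
The stretch of Trim30d is chr7:104507856-104507915 on the minus strand, and its core begins 41 bases before the gene start. The stretch shown for Trim30a is chr7:104465195-104465254 on the minus strand, with the core 36 bases before the start, and it matches Trim30d at 59 of 60 bases. Another start of Trim30a, with its stretch at chr7:104446096-104446148, also holds a core, which begins at base 3 of the transcript. That stretch is not shown and matches Trim30d at 39 of 53 bases. Trim5 is shown at chr7:104288121-104288180 on the minus strand and Trim12c at chr7:104353344-104353403 on the minus strand, with cores 49 and 29 bases before their starts. Trim5 and Trim12c were identical at 57 of 60 bases. The corresponding stretch of Trim12a, chr7:104315466-104315510 on the minus strand, had the same 45 bases as the beginning of Trim5. Trim34a is shown at chr7:104244442-104244486 on the plus strand, with the core 11 bases into the transcript. Trim21, at chr7:102565453-102565494 on the minus strand, has overlapping cores that begin at bases 14 and 20 of the transcript. Trim26, at chr17:36836961-36837026 on the plus strand, has overlapping cores 160 and 154 bases before its start. The core of STAT binding sites, TTC and GAA with 3 bases between them, was counted by gene in the same way. It was found for 5 of 45 TRIM genes (11.1%) and 8.47% of all genes with an entry. The tested members with it were Trim30c, Trim45 and Trim46. A match of letters is a description and was not read as a binding site.

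Libraries held 25590104 to 27375189 estimated counts. Levels in CPM are counts relative to library size, scaled by TMM factors. The factors averaged 1.36 and 1.32 in the WT and KO controls and 0.814 and 0.769 in the WT and KO libraries with LPS. With library totals alone, in place of these factors, the median log2 change of all tested genes with LPS was -0.80 in WT and -0.88 in KO, against -0.06 and -0.10 with them. Changes below are therefore relative to the bulk of genes. All 10 markers of type 1 conventional dendritic cells were detected, with a summed level of 5812 to 8695 CPM per library, and Xcr1 was a gene the cells were selected on. With LPS 2 of the 10 rose and 7 fell in WT, and 2 rose and 6 fell in KO. The 8 neutrophil markers summed to at most 1.75 CPM in KO libraries, but to 22.1 CPM in WT Control replicate 4 and 73.8 CPM in WT LPS replicate 5. The 8 lymphocyte markers summed to 1.37 to 2.48 CPM in controls, 5.77 to 8.63 CPM in WT LPS and 9.88 to 11.4 CPM in KO LPS. WT LPS replicate 2 had the highest levels of interferon-responsive genes in its group: Isg15 was at 1545 CPM there and at 871 to 1012 CPM in the other WT LPS libraries, and Irf7, a transcription factor of the interferon response, at 3272 CPM and 2371 to 2633 CPM. WT Control replicate 4 had Irf7 at 12.8 CPM, and the other WT Control libraries had 8.28 to 8.64 CPM.

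The 14 members that failed the filter were at or near 0. Trim63 and Trim72 act in muscle, Trim10 and Trim58 in red cell precursors, Trim67 in neurons and Trim71 in early embryos. None of these 6 had more than 4 counts in any library. Trim15, Trim38, Trim40, Trim43a and Trim69 reached at most 6 counts. Trim66 had up to 11 counts and Trim29 up to 9. Trim2, a relative of Trim3, had 4 to 13 counts in controls and 0 to 3 counts with LPS, which was too few for the test.

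Both the sum of the family's transcripts and its makeup differed between control and LPS libraries. The deposited TPM values, which are scaled by transcript length and so can be compared between genes, were summed over the 58 members. The sum was 1084 ± 40.8 TPM (SD, n = 4) in WT Control, 1035 ± 45.2 (n = 4) in KO Control, 1829 ± 119 (n = 5) in WT LPS and 1876 ± 46.1 (n = 5) in KO LPS. TPM values carry no TMM factors, so the differences between these sums are not on the scale of the CPM changes. In bulk RNA, a change in the number of cells of a type and a change in RNA per cell cannot be told apart. In control cells the most abundant member was Trim28, the corepressor that silences retroelements with KRAB zinc finger proteins, at 157 ± 5.90 TPM in WT and 140.1 ± 2.14 TPM in KO. Trim30a followed in WT Control with 87.3 ± 7.07 TPM and Trim35, a SPRY-type ligase, with 82.0 ± 1.78 TPM, and these neighbours in the order lay within 1 SD of Trim30a. With LPS, Trim30a led with 569.9 ± 44.4 TPM in WT and 578 ± 17.1 TPM in KO, and Trim30d came next with 265 ± 26.8 and 296 ± 7.75 TPM. Trim12a (115 ± 8.42 TPM), Trim12c (112 ± 13.1) and Trim35 (108 ± 7.48) came after them in WT LPS and were not separated by their SDs.

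**Figure D1:**
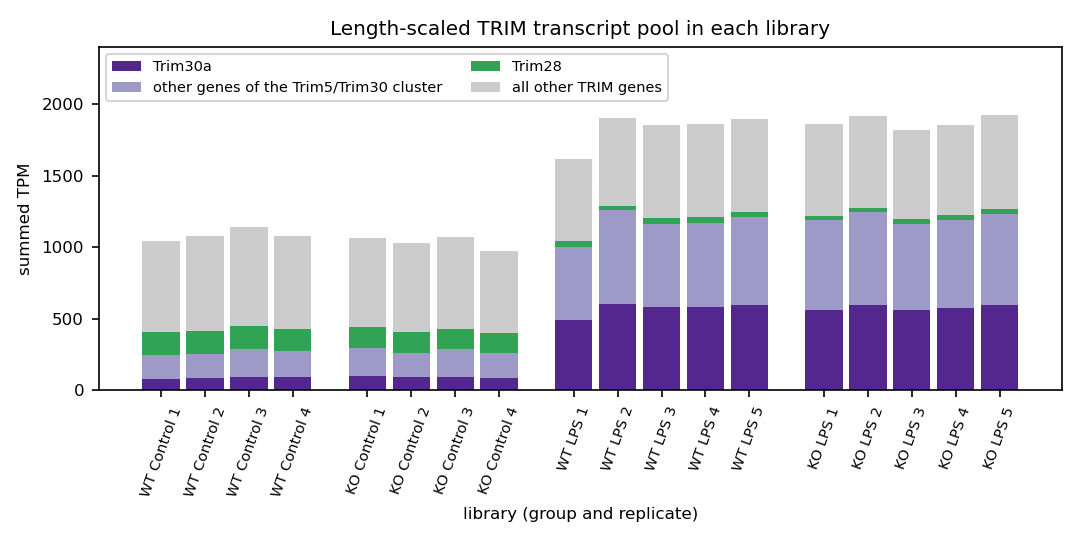
Summed TPM of all 58 TRIM genes in each of the 18 libraries (vertical axis, linear from 0), divided into Trim30a, the other genes of the Trim5/Trim30 cluster, Trim28 and the rest. The cluster takes 23.5% to 27.9% of the sum in control libraries and 61.9% to 66.3% in LPS libraries, while the green Trim28 segment is narrow in every LPS library.

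The 10 genes of the Trim5/Trim30 cluster lie side by side in RefSeq gene order, from Trim6 to Trim30d. Their share of the summed TRIM TPM was 24.4% ± 0.944 (SD, n = 4) in WT Control, 26.9% ± 1.02 (n = 4) in KO Control, 63.4% ± 1.72 (n = 5) in WT LPS and 64.2% ± 0.392 (n = 5) in KO LPS. Trim30a alone made up 8.04%, 9.00%, 31.1% and 30.8% of the sum in the same order of groups. The share of Trim28 was 14.5%, 13.6%, 1.98% and 1.67%. The plot of summed TPM by library shows that no LPS library overlapped a control library in the cluster's share.

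LPS changed nearly all tested members, in both directions. In WT cells 24 of 44 rose and 17 fell, where 40.7% of all tested genes rose and 44.7% fell. The members counted as rising in each genotype include Trim30c, Trim43b and Trim43c. These passed the low-count filter only through their LPS libraries, so their direction was fixed by the filter. By at least 2-fold, 16 rose and 11 fell, beside 19.4% and 23.9% of all tested genes. In KO cells 22 rose and 18 fell, beside 40% and 46.2% of all tested genes, and by at least 2-fold 17 rose and 13 fell, beside 20% and 26.2%. The median log2 change over tested members was 0.31 in WT and 0.24 in KO, and that over all tested genes was -0.06 and -0.10. The median size of the log2 change, whatever its sign, was 1.38 for members and 0.837 for all tested genes in WT, and 1.33 and 0.909 in KO. With library totals alone the split was 17 up and 23 down in WT and 16 up and 25 down in KO, where 19.8% and 20.2% of all genes rose and 69.9% and 70.4% fell. Lack of overlap between control and LPS libraries is given below for single genes. Its share over all tested genes was not counted, so it is not read as particular to them.

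All 10 cluster genes rose in both genotypes, with a median log2 change of 1.99 in WT and 1.76 in KO, whereas with library totals alone 8 rose and 1 fell in WT and 7 rose and 1 fell in KO. Trim30c is among them in these counts and medians, although the low-count filter kept it only through its LPS libraries. Trim30d (gene ID 209387) is a member of the mouse Trim30 group of SPRY-type proteins. Its level was 34.7, 38.6, 38.8 and 42.9 CPM in WT Control and 606, 810.5, 631, 632 and 688 CPM in WT LPS. In KO it was 57.8, 46.6, 54.8 and 53.2 CPM in control and 800.3, 741, 739.6, 790.3 and 773 CPM with LPS. The LPS libraries thus lay more than an order of magnitude above every control library, a log2 change of 4.12 ± 0.09 (SE; adjusted p = 1.88e-18) in WT and 3.86 ± 0.09 (adjusted p = 2.97e-18) in KO by edgeR's quasi-likelihood test. Trim30a (20128), an interferon-induced protein known to restrain Toll-like receptor signalling to NF-kB, was at 138, 149.6, 155 and 152 CPM in WT Control and at 1447, 1841, 1558, 1569.7 and 1652 CPM in WT LPS. In KO Control it was at 179, 169, 174 and 171 CPM, and in KO LPS at 1706, 1719, 1617, 1696 and 1718 CPM. Control and LPS libraries did not overlap in either genotype (log2 change 3.44 ± 0.07 in WT and 3.29 ± 0.06 in KO).

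Trim30c was close to silent before LPS. It had 2, 0, 2 and 1 counts in WT Control and 1, 3, 1 and 1 counts in KO Control, so no fitted fold is given. With LPS it had 163, 338, 241, 226 and 237 counts in WT and 168, 304, 238, 198 and 243 counts in KO. Only these LPS libraries brought it through the low-count filter, so its calls in both genotypes are no separate support for a rise. Trim34a (94094), related to the interferon-responsive human TRIM34, was at 22.7, 22.2, 22.3 and 24.0 CPM in WT Control and 115, 148, 116, 117 and 115 CPM in WT LPS, a log2 change of 2.42 ± 0.07. In KO its log2 change was 2.15 ± 0.07. Both sets of groups were fully separate. Among the rest of the cluster, Trim12c (log2 change 2.02 in WT and 2.01 in KO) and Trim12a (1.51 in both) changed by nearly the same amount in each genotype. Trim6 was low, at 0.317 CPM in WT Control and 1.07 CPM in WT LPS. Its KO call was lost with library totals alone (log2 change 0.58, adjusted p = 0.095). Trim5, the relative of the retroviral capsid-binding protein of primates, rose by 0.35 ± 0.09 in WT and 0.45 ± 0.09 in KO on the log2 scale, but its log2 change was -0.40 and -0.34 with library totals alone, both past the threshold. Trim34b, at 1.10 CPM in WT Control, had log2 changes of 0.77 in WT and 0.53 in KO. With library totals alone its KO change was -0.25 and neither passed. Its KO call was also lost without KO Control replicate 1, 2 or 4 and without KO LPS replicate 1, 2 or 4, where it reached an adjusted p of 0.15.

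Cluster members are close copies, and the estimated counts show that reads were shared out among genes. At a tolerance of 0.001, counts were not whole numbers in any of the 18 libraries for Trim5, Trim12c, Trim30b, Trim34a and Trim34b, in 94.4% of libraries for Trim30a and Trim30d, and in 77.8% for Trim12a. How the authors' counting divided such reads is not given in the sources used here, so the split between these copies is uncertain. Outside the cluster the same held for Trim9 and Trim17, while the counts of Trim14, Trim25, Trim26, Trim28 and Trim3 were whole in every library.

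**Figure D2:**
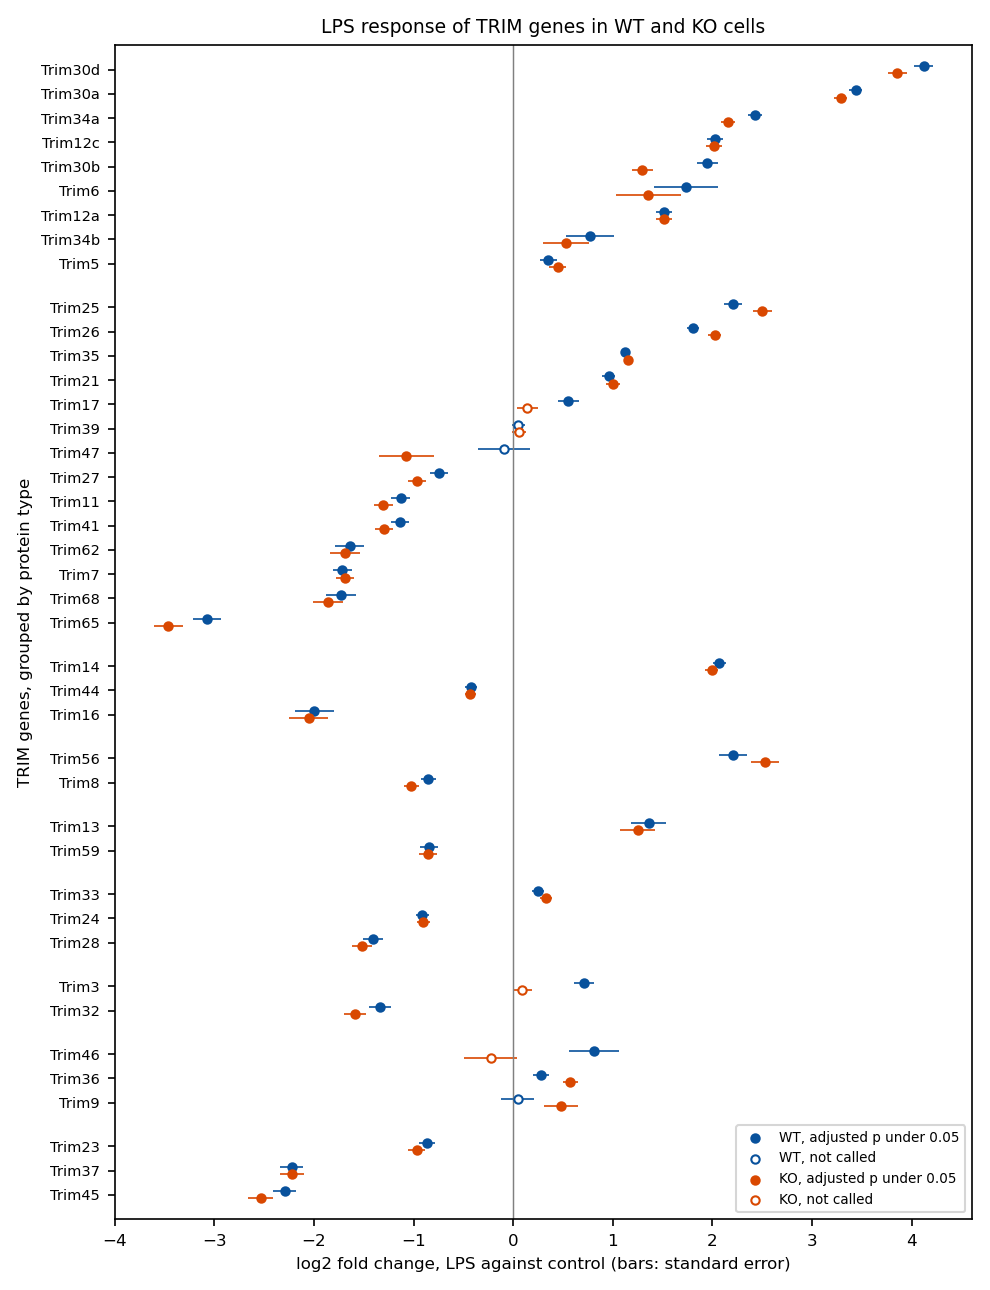
Log2 fold change with LPS against control in WT (blue) and KO (orange) cells for 41 tested TRIM genes, with bars for the standard error and filled points where the adjusted p is under 0.05. Genes are grouped from top to bottom as Trim5/Trim30 cluster, other PRY-SPRY, without a RING, RING and B-box only, transmembrane, PHD-bromodomain, NHL, COS box, and ARF, MATH or filamin domain. With TMM scaling all 9 cluster genes shown lie to the right of 0, which Trim5 and the KO point of Trim34b do not with library totals alone, and all 3 genes of the last group lie to the left. Trim30c, Trim43b and Trim43c are left out because their control counts were 0 to 4.

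Other SPRY-type members went both ways. Of 16 tested, 7 rose and 7 fell in WT, and 6 rose and 8 fell in KO. Among those that rose were ligases of antiviral signalling. Trim25 (217069), which attaches ubiquitin in the RIG-I pathway, went from 91.1 to 420.0 CPM in WT (log2 change 2.20 ± 0.09) and from 81.5 to 462 CPM in KO (2.50 ± 0.09). Trim26, a regulator of IRF3 and NF-kB signalling, went from 61.5 to 215 CPM in WT and from 63.7 to 259 CPM in KO, with log2 changes of 1.81 and 2.02. Trim21, the cytosolic antibody receptor, rose by 0.96 in WT and 1.00 in KO on the log2 scale, and Trim35, a regulator of IRF7, by 1.12 and 1.16. Trim43b and Trim43c, paralogs known from the early embryo, had 0 to 4 counts per control library and 11 to 31 counts per LPS library. Both are counted among those that rose, but they passed the low-count filter only through the LPS libraries.

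The strongest fall among all members was that of Trim65 (338364), a SPRY-type ligase of the RNA sensor MDA5. It was at 16.8, 20.1, 17.4 and 19.4 CPM in WT Control and 1.70, 2.09, 3.05, 2.07 and 1.99 CPM in WT LPS. In KO it was at 17.7, 20.1, 19.9 and 17.2 CPM in control and 1.02, 1.78, 2.03, 1.45 and 2.15 CPM with LPS. Every LPS library lay far below every control library (log2 change -3.07 ± 0.14 in WT and -3.46 ± 0.15 in KO), and the level with LPS rested on 20 to 67 counts per library. Trim7, a ligase first found as a partner of glycogenin, had log2 changes of -1.71 in WT and -1.69 in KO. Trim11 and Trim41 changed by -1.13 and -1.14 in WT. Trim62 and Trim68, both below 6 CPM in every group mean, changed by -1.64 and -1.73 in WT.

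Members with the ARF, MATH or filamin-type domain all fell, 3 of 3 in each genotype. Trim45, with the filamin-type domain, was at 7.24, 6.43, 6.30 and 6.42 CPM in WT Control and 1.43, 0.919, 1.41, 1.53 and 1.38 CPM in WT LPS. In KO it was at 6.56, 5.99, 6.06 and 6.28 CPM in control and 1.23, 1.14, 0.939, 1.25 and 0.802 CPM with LPS. The groups were fully separate in both genotypes (log2 change -2.30 ± 0.12 in WT and -2.53 ± 0.13 in KO). Trim37, a MATH-domain ligase that limits centriole number, changed by -2.22 in each genotype, from 26.4 to 5.64 CPM in WT. Trim23, which carries an ARF-type GTPase domain, changed by -0.86 in WT and -0.97 in KO.

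The chromatin-bound PHD-bromodomain members did not move as a unit, since 2 of 3 tested fell and 1 rose in each genotype. Trim28 (21849) was at 212 to 236 CPM in WT Control and 59.4 to 97.8 CPM in WT LPS, with a log2 change of -1.40 ± 0.10 in WT and -1.51 ± 0.10 in KO. Trim24, a coregulator of nuclear receptors, changed by -0.91 and -0.90. Trim33, a regulator of Smad4, rose by 0.25 in WT and 0.33 in KO, but its log2 change was -0.50 and -0.45 with library totals alone.

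Among members without a RING, Trim14, an adaptor of mitochondrial antiviral signalling, rose from 52.6 to 220.3 CPM in WT (log2 change 2.07) and from 61.0 to 243 CPM in KO (1.99). Trim16 changed by -2.00 in WT and -2.06 in KO, and Trim44 by -0.42 and -0.43. Of the RING and B-box members, Trim56, a ligase of DNA and RNA sensing pathways, was at 16.3, 18.5, 22.3 and 19.9 CPM in WT Control and 72.3, 95.7, 85.3, 95.2 and 95.3 CPM in WT LPS. In KO it was at 20.6, 19.6, 20.3 and 11.3 CPM in control and 108, 108, 94.6, 102 and 106 CPM with LPS. No LPS library came near a control library, although KO Control replicate 4 lay well below the other KO controls (log2 change 2.21 ± 0.14 in WT and 2.53 ± 0.14 in KO). Trim8, known to bind the cytokine signalling inhibitor SOCS1, fell by 0.85 in WT and 1.02 in KO on the log2 scale. The membrane-anchored Trim13 rose (1.36 and 1.25) and Trim59, also membrane-anchored, fell (-0.85 and -0.86).

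In call, 5 members differed between the genotypes, and the share of all tested genes that did so was not counted. Trim3, Trim17 and Trim46 passed in WT only, and Trim9 and Trim47 in KO only. With RLE factors 24 members rose in KO, against 22 with TMM factors, so passing in WT only also depended on scaling. The difference of the responses passed its own test for Trim3 alone among these 5 genes. For 4 of the 5 the LPS change also depended on scaling: with library totals alone the log2 change in WT was -0.03 for Trim3, -0.19 for Trim17 and 0.07 for Trim46, and in KO it was -0.30 for Trim9, none of them past the threshold. Trim47, below 1 CPM in every group mean, kept its KO call (log2 change -1.07) under all scalings tried. The KO call of Trim9 was lost without KO Control replicate 4. Trim36 rose by 0.28 in WT and 0.57 in KO with TMM scaling and had log2 changes of -0.47 and -0.21 with library totals alone. Trim39 passed in neither genotype (log2 change 0.05 and 0.06).

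The direction of the LPS change was set beside the interferon core in the promoter. All 8 tested members with the core rose in both genotypes under TMM scaling, with log2 changes of 0.35 to 4.12 in WT (median 1.92), and Trim5 is the member that turns with library totals alone. The untested Trim2, with the core at only 1 of its 5 starts, had 4 to 13 counts in control libraries and 0 to 3 with LPS. These are too few to give it a direction. Of the 24 tested members with a promoter entry but no core, 8 rose, 13 fell and 3 did not pass in WT, with a median of -0.59. Among all tested genes with an entry, 57.2% of 395 with the core rose in WT and 29.9% fell, and 39.7% of 9246 without it rose and 45.9% fell. With TMM scaling Trim6, Trim13, Trim25, Trim30b, Trim30c and Trim56 rose by at least 2-fold in both genotypes although the window held no core. Of these, Trim30c passed the low-count filter only through its LPS libraries, and Trim6 lost its KO call with library totals alone. The stretch shown for Trim30a and that of Trim30d are nearly the same letters, and likewise those of Trim5, Trim12a and Trim12c. All 5 genes have shared-out reads, so 5 of the 8 are not independent cases. This relation is a description, and no test was made of it.

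Without LPS, 3 members were higher in KO than in WT and none was lower. Genes called higher were 1.89% of all tested genes and genes called lower 0.525%. At an unadjusted p under 0.05 there were 8 members (18.2%), beside 13.9% of all tested genes. The 3 were Trim30b, Trim30d and Trim34a, all of the Trim5/Trim30 cluster, whose 10 genes had a median log2 difference of 0.24, beside 0.06 over all 44 tested members and 0.02 over all tested genes. Reads of these 3 genes and of Trim30a were shared out among close copies, as given above, so they are not independent cases. The part of read assignment in these differences was not tested. Trim30d was at 34.7 to 42.9 CPM in WT Control and 46.6 to 57.8 CPM in KO Control, without overlap (log2 difference 0.46 ± 0.09 SE, adjusted p = 0.0064). Trim30b (244183) was at 5.17, 5.77, 5.64 and 4.74 CPM in WT Control and 8.34, 7.42, 7.71 and 6.78 CPM in KO Control (0.50 ± 0.11, adjusted p = 0.022). Trim34a was at 22.2 to 24.0 CPM in WT Control and at 30.3, 26.4, 27.5 and 28.1 CPM in KO Control (0.30 ± 0.07, adjusted p = 0.034). Each KO library was above each WT library for these 3 genes, by less than 2-fold in the means. Lack of overlap was not particular to them. Among members far from a call, Trim12c (adjusted p = 0.68), Trim32 (0.45) and Trim37 (0.56, lower in KO) had no overlap either. The share of all tested genes without overlap was not counted.

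Trim30a missed the threshold by little, with means of 149 CPM (WT) and 173 CPM (KO), a log2 difference of 0.22 ± 0.06 (adjusted p = 0.067), also without overlap, and it passed with DESeq2 (adjusted p = 0.049), limma-voom (0.047) and a block for runs of library numbers (0.025). The call of Trim30d held when any single library was left out. That of Trim34a was lost without WT Control replicate 1, 2 or 3 or KO Control replicate 1, 3 or 4 (adjusted p up to 0.13) and with RLE factors (0.064), and that of Trim30b without WT Control replicate 1, 3 or 4 or KO Control replicate 1, 2 or 3 (up to 0.080). The count was 1 without WT Control replicate 1 or 3 or KO Control replicate 1 or 3. It was 5 without WT LPS replicate 2, beside 4.02% of all tested genes higher and 2.26% lower, and Trim30a and Trim14 passed as well. With only the control libraries in the fit, 5 members were higher, namely these 5, and Trim37 was lower. With DESeq2, Trim35 was lower as well (log2 difference -0.12, adjusted p = 0.018). Of the 10 markers of type 1 conventional dendritic cells 1 passed, Xcr1, at 175 CPM in WT and 109 CPM in KO. The 11 monocyte and macrophage markers, of which 10 were tested and none passed, summed to 1790 to 1884 CPM in WT Control and 1852 to 2121 CPM in KO Control, and the part of these cell markers in the result was not tested.

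**Figure D3:**
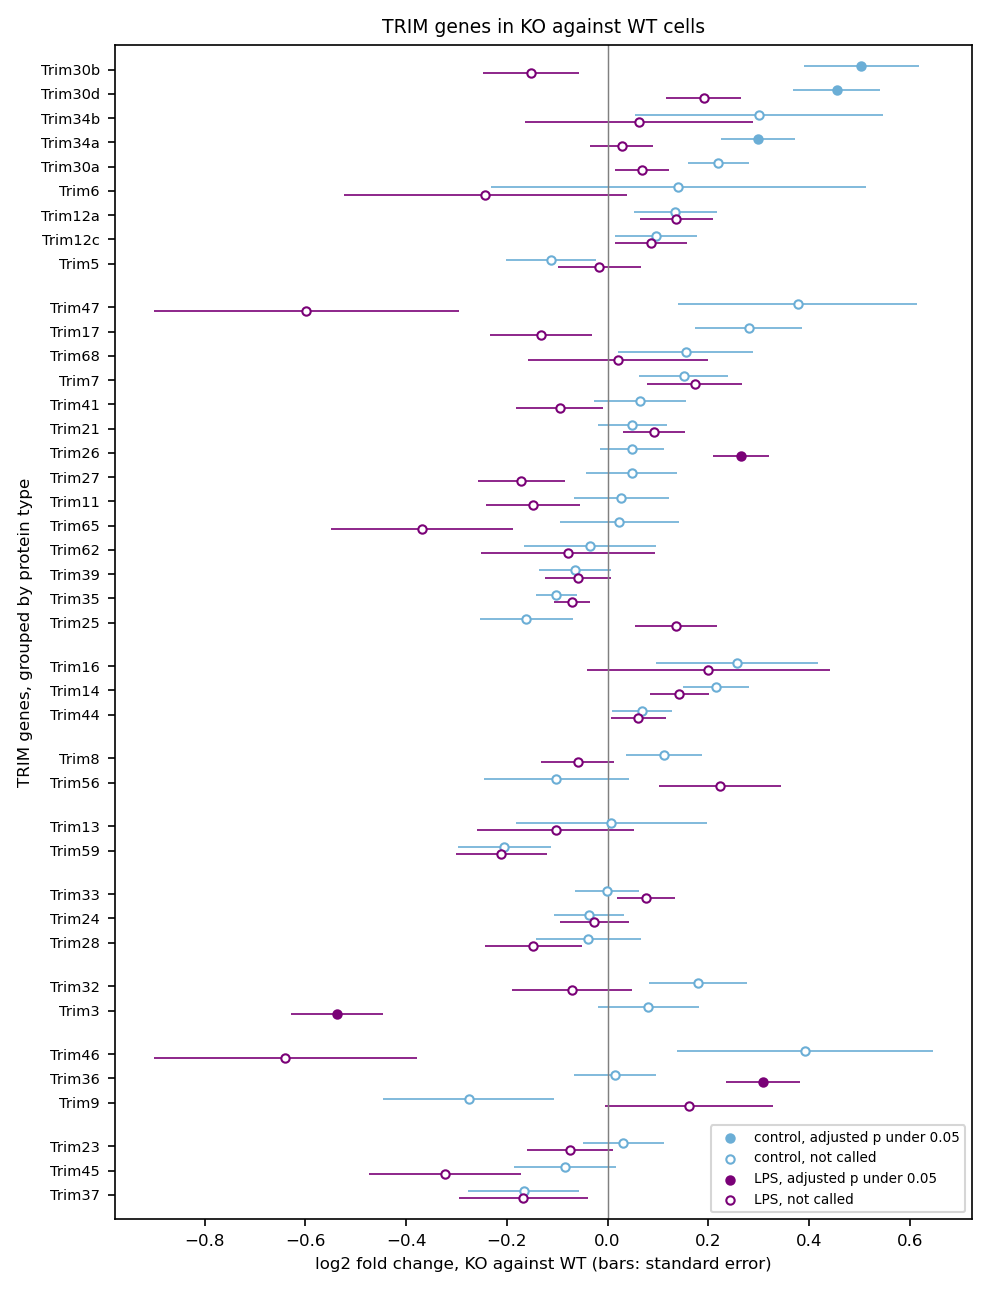
Log2 fold change of KO against WT without LPS (light blue) and with LPS (purple) for 41 tested TRIM genes, grouped as in the plot of LPS responses, with bars for the standard error and filled points where the adjusted p is under 0.05. Most points lie within 0.4 of 0, and 6 points are filled, Trim30b, Trim30d and Trim34a without LPS and Trim26, Trim3 and Trim36 with LPS. Trim30c, Trim43b and Trim43c are left out because their control counts were 0 to 4.

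With LPS, 3 other members passed: Trim26 and Trim36 were higher in KO and Trim3 was lower, while 5.3% of all tested genes were higher and 5.5% lower. The unadjusted p was under 0.05 for 8 members (18.2%), beside 26.2% of all tested genes. Trim3 (55992), an NHL-repeat ligase known from neurons and vesicle transport, was at 35.3, 42.5, 54.9, 46.4 and 46.3 CPM in WT LPS and 28.1, 31.4, 32.6, 32.2 and 31.1 CPM in KO LPS. Every KO library was below every WT library (log2 difference -0.54 ± 0.09, adjusted p = 0.00068). Trim26 (22670) was at 218, 243, 199.9, 200.1 and 215 CPM in WT LPS and 282, 246, 243, 264 and 258 CPM in KO LPS. The ranges met only at WT LPS replicate 2 (log2 difference 0.26 ± 0.06, adjusted p = 0.0041). Trim36 (28105), a COS-box ligase of microtubules, was at 38.8, 53.0, 39.6, 40.6 and 41.4 CPM in WT LPS and 58.0, 50.1, 48.7, 53.7 and 53.7 CPM in KO LPS (0.31 ± 0.07, adjusted p = 0.010). There too WT LPS replicate 2 lay among the KO libraries and the other WT libraries below them. Trim36 did not pass with only the LPS libraries in the fit (adjusted p = 0.067).

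The 3 cluster genes that were higher in KO without LPS did not pass with LPS. Trim30d had a log2 difference of 0.19 (adjusted p = 0.11), Trim34a of 0.03 and Trim30b of -0.15, and no cluster gene was called.

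The count with LPS rested on WT LPS replicate 2. Without it 8 members were higher in KO and 6 lower, where 13.8% of all genes were higher and 14.2% lower. The added higher members were Trim12a (0.21), Trim12c (0.17), Trim14 (0.19), Trim21 (0.16), Trim25 (0.22) and Trim30d (0.27), with log2 differences in brackets. The added lower members were Trim11 (-0.23), Trim27 (-0.25), Trim28 (-0.25), Trim37 (-0.28) and Trim59 (-0.25). Trim3, Trim26 and Trim36 remained called, at -0.56, 0.31 and 0.40. This library also had 148 CPM of Trim34a, beside 115 to 117 CPM in the other WT LPS libraries, and its part in each difference was measured only by leaving it out. The summed lymphocyte markers, which differ between the LPS groups as given above, were at most 11.4 CPM. Of the 10 markers of type 1 conventional dendritic cells, 5 were lower in KO LPS than in WT LPS, among them Naaa (986 and 514 CPM) and Xcr1 (428 and 281 CPM), and Cadm1 was higher. Of the 6 tested markers of type 2 conventional dendritic cells 2 were lower, Itgam and Clec12a. The part of these markers in the TRIM differences was not tested.

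The LPS response differed between genotypes for 2 members, both with a smaller change in KO, while 1.03% of all tested genes had a higher response in KO and 2.79% a lower one. Trim3 changed by 0.71 ± 0.10 in WT and 0.09 ± 0.10 in KO on the log2 scale, a difference of -0.62 ± 0.14 (adjusted p = 0.015). Its control levels were 24.7, 30.6, 27.2 and 27.8 CPM in WT and 29.1, 32.0, 29.5 and 26.0 CPM in KO, which overlap. The WT LPS libraries alone were thus above the rest on the TMM-scaled CPM. In TPM, Trim3 was at 21.9 ± 2.07 (SD, n = 4) in WT Control, 21.2 ± 2.22 (n = 4) in KO Control, 21.7 ± 4.35 (n = 5) in WT LPS and 14.4 ± 1.11 (n = 5) in KO LPS, so on that scale the KO LPS libraries were the ones apart.

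Trim30b changed by 1.95 ± 0.11 in WT and 1.29 ± 0.11 in KO, a difference of -0.65 ± 0.15 (adjusted p = 0.019). With LPS it was at 16.1, 23.4, 23.3, 19.8 and 20.4 CPM in WT and 17.6, 16.7, 21.2, 19.6 and 17.6 CPM in KO. These ranges overlap, and the groups that do not overlap are the control groups, where KO was higher. The split of reads between Trim30b and its close copies is uncertain, as given above. Both calls held when any single library was left out. Without WT LPS replicate 2, Trim25, Trim26 and Trim36 also passed, with a response higher in KO by 0.38, 0.26 and 0.38. In that setting 4.48% of all tested genes had a higher response in KO and 8.06% a lower one. The unadjusted p was under 0.05 for 10 members (22.7%), beside 18.6% of all tested genes.

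**Figure D4:**
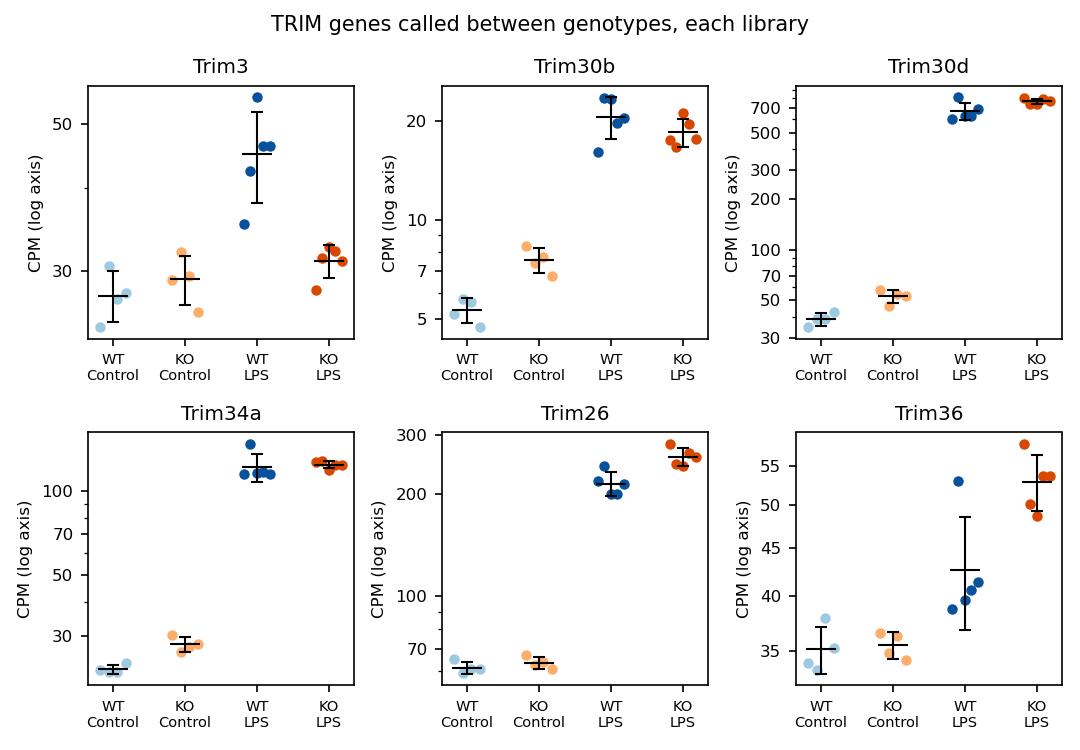
TMM-scaled CPM (log axis) of the 6 TRIM genes that differed between genotypes, with a point for each library and the mean and SD of each group in black. On this scale Trim3 is high in WT LPS only, Trim30b, Trim30d and Trim34a are higher in KO Control than in WT Control without overlap, and in Trim26 and Trim36 a single WT LPS library, replicate 2, reaches into the KO LPS range.

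Other genes of the pathway were followed by lists, whose counts stand beside the shares of all tested genes given above. With LPS 40.7% of all genes rose in WT and 40% in KO, and KO was higher for 1.89% without LPS and 5.3% with LPS. Of the TRIM proteins that carry other symbols, Pml, Mid1 and Mefv were tested and Mid2 was not. All 3 rose with LPS in both genotypes. Pml, the scaffold of nuclear bodies, went from 28.9 to 832 CPM in WT and from 41.4 to 959 CPM in KO. Mid1, a microtubule-bound ligase, went from 1.09 to 20.2 CPM in WT, and Mefv, the pyrin of the inflammasome, from 0.446 to 9.00 CPM. Without LPS, Pml was higher in KO by 0.52 ± 0.08 on the log2 scale (adjusted p = 0.0014), like the 3 cluster genes.

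The E1 and E2 enzymes that feed ubiquitin to RING ligases rose with LPS in 11 of 11 cases in each genotype and none passed between genotypes. Ube2d3, an E2 enzyme used by many RING ligases, went from 179.7 to 457 CPM in WT (log2 change 1.35), and Ube2n, the E2 of ubiquitin chains that signal without degradation, from 65.4 to 139 CPM. Of 8 deubiquitinases of the same signalling steps 7 rose and 1, Cyld, fell in both genotypes, with the highest change for Tnfaip3, the NF-kB inhibitor A20 (18.8 to 524 CPM in WT). None passed between genotypes.

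Among 18 genes of RNA and DNA sensing, 13 rose and 4 fell with LPS in WT and 12 rose and 5 fell in KO. Irf7 rose by 8.11 and 6.91 on the log2 scale, Ddx58, the gene of RIG-I, by 7.91 and 8.07, and Ifih1, the gene of MDA5, by 6.69 and 6.42. Without LPS, Irf7 (9.51 CPM in WT and 24.3 CPM in KO) and Tlr4 (8.38 and 12.2 CPM) were higher in KO. With LPS, Sting1, the adaptor of cytosolic DNA sensing, averaged 94.1 CPM (WT) and 54.1 CPM (KO), a log2 difference of -0.80 ± 0.07 (adjusted p = 1.8e-07). Mavs was lower too (-0.38), while Tlr4 (0.48) and Zc3hav1 (0.16) were higher. The responses of Sting1 (-0.80) and Irf7 (-1.19) were smaller in KO.

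The ISG15 pathway, a ubiquitin-like modifier induced by interferon, rose with LPS in 5 of 5 genes in both genotypes, and 3 of 5 were higher in KO without LPS: Isg15 (1.57 and 4.01 CPM), Ube2l6 (log2 difference 0.43) and Usp18 (0.79). With LPS none of the 5 differed, and the response of Isg15 was smaller in KO (-1.28 ± 0.29, adjusted p = 0.020). Of 8 genes of the interferon receptor and its ISGF3 factor, 7 rose with LPS in each genotype. Irf9, the DNA-binding subunit of ISGF3, was higher in KO without LPS (56.7 and 68.8 CPM, log2 difference 0.28 ± 0.05). Among 8 partners of the PHD-bromodomain proteins, 4 rose and 3 fell with LPS in WT and 4 rose and 4 fell in KO. Cbx3, a heterochromatin protein bound by Trim28, changed by -1.99 in WT and -2.44 in KO, and Smad4, a target of Trim33, by 1.49 and 1.53. With LPS, Cbx3 was lower in KO (-0.45) and Smad3 higher (0.44).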

How the data were processed

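RNA of 18 BMDC libraries was compared. The TRIM genes and gene lists were chosen with earlier results of these data known. Per the submitters' processing notes, HISAT, Bowtie2 and the build GRCm39 were used. Their versions, the annotation and the counting program were not given in the sources used here. Per the file headers, the authors deposited TPM, FPKM and an estimated count for each gene and library. Of the estimated counts 6.37% were not whole (tolerance 0.001), and they were rounded. The deposited TPM and FPKM values are scaled by length and library and carry no TMM factors. They were used for levels between genes, for the family's summed level in each library and group, and for Trim3 beside its CPM. Replicates differed by more than counting error (chi-square per degree of freedom at least 2.75 over 32 pairs).

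Genes passing filterByExpr (minimum count 10, minimum total 15) entered a quasi-likelihood fit in edgeR 4.0.16 (R 4.3.3) with TMM factors and a mean for each of 4 groups. From it came 5 contrasts, with Benjamini-Hochberg adjustment over 11989 genes, and a gene was called at an adjusted p under 0.05. The biological coefficient of variation was 0.0934. The procedure was tested on simulated data. Alternatives were RLE factors, library totals, other filters, DESeq2 1.42.0, limma-voom (limma 3.58.1), fewer groups, blocks and left-out libraries. Called members were named, at most 12 per direction and contrast, with each library's values for up to 6 that reached 5 CPM. Of each pathway list up to 3 called genes per contrast were named, and Irf7 and Isg15 in any case. Zc3hav1 was named beyond this limit in KO against WT with LPS. A further gene is not reported here. No coordinates of GRCm39 were used, and promoters are those of GRCm38.p6 in RefSeq.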

Additional observations from a re-analysis of the deposited data

Results flagged for a closer look

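A library far from the others of its group was looked for by Dixon's ratio in 60 groups of values, and chance gives about 1 in 20 groups. WT LPS replicate 2 was apart in 4 genes: Trim34a at 148 CPM (nearest other library 117), Trim36 at 53.0 CPM (nearest 41.4), Isg15 at 1545 CPM (nearest 1012) and Trim45 at 0.919 CPM (nearest 1.38). Trim56 was at 11.3 CPM in KO Control replicate 4, with the nearest library at 19.6. Trim45 was at 7.24 CPM in WT Control replicate 1 (nearest 6.43), and Irf7 at 12.8 CPM in WT Control replicate 4 (nearest 8.64). Trim30c was at 0.0843 CPM in KO Control replicate 2 (nearest 0.0282), which rests on 3 counts. Trim30a was at 1617 CPM in KO LPS replicate 3 (nearest 1696). The summed TRIM level of WT LPS replicate 1 was 1620 TPM, and the nearest other WT LPS library had 1855 TPM.

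The LPS response differed between genotypes by edgeR's interaction test for Trim3 (log2 difference of KO and WT responses -0.62, adjusted p = 0.015) and for Trim30b (-0.65, adjusted p = 0.019). The cause was not tested for any of these values.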

How the results depend on the processing

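The members called in KO against WT without LPS numbered 3, and 5 with DESeq2, 6 with only the compared groups in the fit, 5 without the libraries numbered 5 and 7, and 1 to 5 when each library was left out. Without the libraries numbered 5 and 7, 3.62% of all tested genes were higher and 3.26% lower. Called genes in all numbered 289, and 114 to 751 with a library left out. The shares of all genes with DESeq2 and with only the compared groups are not given here. In KO against WT with LPS there were 3, 13 without the libraries numbered 5 and 7, and 3 to 14 when each library was left out. Without the libraries numbered 5 and 7, 14.7% of all tested genes were higher in this contrast and 12.4% lower. Here 1294 genes were called in all, and 805 to 3344 with a library left out. The interaction called 2, 5 without the libraries numbered 5 and 7, and 2 to 5 when each library was left out. Without the libraries numbered 5 and 7, the response of 6.9% of all tested genes was higher in KO and that of 6.41% lower. The interaction called 458 genes in all, and 208 to 1501 with a library left out. The LPS contrasts called 41 (WT) and 40 (KO), 41 and 38 to 40 with a library left out, and stayed within 1.5 times under all alternatives. The high counts without a library came without WT LPS replicate 2, library number 5, and the cause was not tested. Library totals alone turned log2 changes with LPS: in WT Trim3 (-0.031), Trim5 (-0.40), Trim36 (-0.47), Trim17 (-0.19) and Trim33 (-0.50), and in KO Trim9 (-0.30), Trim34b (-0.25), Trim5 (-0.34), Trim36 (-0.21) and Trim33 (-0.45); this follows from the shift of all genes given above. Of 89 results for single genes, these 10 were the reversals, and 5 others lost the call in an alternative other than leaving a library out. Between genotypes, same-numbered libraries correlated at 0.03 to 0.25 without LPS and at 0.01 to 0.35 with LPS. Pairs there that shared neither replicate number nor run of library numbers ran from -0.25 to 0.21 (median -0.050) and from -0.33 to 0.21 (median -0.055). From control to LPS, same-numbered libraries ran from -0.22 to 0.27 in WT and from -0.11 to 0.11 in KO. Whether same-numbered libraries share a source was not tested. With the replicate block the counts were 2, 3, 41, 40 and 2 for genotype without LPS, genotype with LPS, LPS in WT, LPS in KO and the interaction, and Trim34a without LPS was lost (adjusted p = 0.053). When libraries were paired by runs of their numbers, the pairs correlated at 0.14 to 0.27 between WT Control and WT LPS, and from -0.03 to 0.35 between other groups. Pairs of WT Control and WT LPS that shared neither number ran from -0.26 to 0.29 (median -0.066). With a block for these runs the counts were 4, 3, 41, 39 and 3: Trim30a without LPS (adjusted p = 0.025) and Trim34a in the interaction (0.045) were gained, and Trim34b in KO was lost (0.086). The cluster's share of the summed TPM of TRIM genes in WT LPS was 63.4% in FPKM too, and 62.7% to 63.8% with a library left out. At this depth the 14 untested members allow no comparison.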
